A study of Mus musculus with 9 samples.

Results

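Inflammasomes are protein platforms that assemble in the cytosol of myeloid cells when a sensor meets a danger signal. A sensor recruits the adaptor ASC, encoded by Pycard, which gathers and activates caspase-1, and caspase-1 then matures interleukin 1 beta and interleukin 18 and cuts gasdermin D, whose freed end forms pores in the plasma membrane. The NOD receptors are related sensors that bind fragments of bacterial cell wall and signal through the kinase RIPK2 to NF-kB without a caspase. The genes described here are 10 of the 22180 genes measured in the series. They were taken by name, and they are the sensors Mefv, Nlrp3, Nlrc4 and Aim2, the NOD receptors Nod1 and Nod2, the adaptor Pycard, the caspases Casp1 and Casp4, and the pore protein gene Gsdmd. All 10 had a probe set that names a single gene, and the probe set with the highest mean over the arrays stands for a gene.

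Male C57BL/6J mice, 8 weeks old, received an incisional wound, and the plantar hindpaw was taken 24 h later. They were CD11b+ Ly6G- myeloid cells sorted into Ly6C low, Ly6C medium (Ly6C med in the labels) and Ly6C high cells within a single day. Each gate had 3 arrays, 9 in all, all from wounded paws, so no gate shows a resting state. The labels do not state that replicates come from different animals, so the p-values rest on array-to-array spread that could be technical only. Values are the authors' log2 intensities after RMA, and a difference is a difference of gate means on that scale. Differences were tested with limma over all 22180 genes, with Benjamini-Hochberg adjusted p-values and a threshold of 0.05. All 10 genes lay above the array median of the genes tested (4.16 to 4.30) on every array.

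The gates were checked against markers of myeloid and other cells. Itgam, which encodes CD11b, averaged 10.58, 10.90 and 11.02 in Ly6C low, medium and high, and Ly6c2, which encodes Ly6C, averaged 8.33, 11.22 and 12.27. The mean of 9 myeloid and monocyte markers was 9.63 to 10.19 in low, 10.69 to 10.78 in medium and 11.03 to 11.15 in high. Ly6c2, Ccr2 (-0.79), Chil3 (-3.43) and Vcan (-3.00) were called lower in low than in high, and 0 were called higher. Itgam, Csf1r, Cd68, Adgre1 and Lyz2 were not called, and Csf1r, Cd68 and Adgre1 had the opposite sign (0.25, 0.14 and 0.45). Ly6g lay between 2.74 and 4.61 over the 9 arrays, and the T cell genes Cd3e, Cd3d and Cd3g between 2.68 and 3.47. Cd4, of the same T cell list, lay between 3.93 and 5.42, with low wholly above high. Its difference of 0.87 was not called (limma adjusted p = 0.0884), nor was any other of the 5 T cell markers measured. Among 10 neutrophil markers, Camp, Ltf and Ngp lay between 2.65 and 3.76, but S100a8 lay between 6.49 and 10.37. Of these 10, Mmp8 and Csf3r were called lower in low than in high (-2.78 and -1.13), and 0 were called higher. The mean log2 level of 10 fibroblast markers was 4.92 to 5.05 in low, 5.45 to 5.58 in medium and 7.34 to 8.61 in high, with all 10 lower in low than in high. The mean of 8 tissue macrophage markers ran the other way, at 9.57 to 9.77 in low, 7.51 to 8.37 in medium and 6.60 to 7.06 in high. So did the mean of 7 dendritic cell markers, at 7.04 to 7.22 in low, 5.4 to 5.59 in medium and 4.78 to 5.32 in high. Ccl17, Ccl22, Ccr7 and Flt3 were called higher in low than in high. Zbtb46, Cd209a and Xcr1 were not called, and Xcr1 had the opposite sign (-0.48). Single markers did not all follow that order, since Flt3 averaged 4.85 in medium and 4.98 in high. Of the genes of granulocytes other than neutrophils, Prg2 and Ccr3 of 5 eosinophil markers and Kit of 6 mast cell and basophil markers were called higher in low as well. Sfn and Cdh1 of 6 keratinocyte markers were also called higher in low than in high (1.11 and 0.90). Kdr of 6 endothelial markers was called lower (-0.86). In sorted populations, fewer cells of a type and less RNA per cell cannot be told apart. The part of these cell types in the differences of the 10 genes was not tested.

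The promoters are shown for Mefv, Nlrc4 and Nlrp3, which had the largest negative differences between low and high, for Pycard, which had the only positive one, and for Casp4, which is induced through NF-kB and interferon signalling. Each is the 250 bases before a RefSeq transcript start on GRCm38.p6, read in the direction of transcription, and the table held such starts for 9 of the 10 genes. Capitals mark matches, on either strand, to the motifs that follow. GAGGAA is the core bound by ETS factors such as PU.1 together with flanking bases. A core with other flanking bases is therefore not marked or counted. An NF-kB type site is GGGA and CC with any 4 bases between. An interferon response type site is GAAA repeated after any 2 bases. A C/EBP type site is TTGC and AA with any 2 bases between.
Mefv, chr16:3718125-3718374, minus strand: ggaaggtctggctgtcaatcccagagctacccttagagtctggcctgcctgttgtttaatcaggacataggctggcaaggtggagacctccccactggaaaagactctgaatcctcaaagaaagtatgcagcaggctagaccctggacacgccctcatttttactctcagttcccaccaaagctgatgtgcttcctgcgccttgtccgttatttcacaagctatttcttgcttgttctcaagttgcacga
Nlrc4, chr17:74459109-74459358, minus strand: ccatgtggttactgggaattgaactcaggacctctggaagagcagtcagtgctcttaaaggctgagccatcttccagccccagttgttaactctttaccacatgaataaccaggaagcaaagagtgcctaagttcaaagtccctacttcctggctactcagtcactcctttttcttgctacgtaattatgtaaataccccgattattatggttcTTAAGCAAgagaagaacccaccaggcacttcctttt
Nlrp3, chr11:59541319-59541568, plus strand: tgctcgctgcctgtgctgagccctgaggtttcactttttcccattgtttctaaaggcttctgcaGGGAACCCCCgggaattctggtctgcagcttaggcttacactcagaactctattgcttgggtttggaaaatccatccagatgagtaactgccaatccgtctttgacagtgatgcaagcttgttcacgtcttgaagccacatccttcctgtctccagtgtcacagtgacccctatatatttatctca
Pycard, chr7:127993868-127994117, minus strand: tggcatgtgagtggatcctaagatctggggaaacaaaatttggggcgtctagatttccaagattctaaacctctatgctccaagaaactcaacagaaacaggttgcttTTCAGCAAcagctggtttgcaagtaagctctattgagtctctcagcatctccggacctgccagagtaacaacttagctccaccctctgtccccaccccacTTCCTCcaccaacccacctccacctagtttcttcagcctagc
Casp4, chr9:5308599-5308848, plus strand: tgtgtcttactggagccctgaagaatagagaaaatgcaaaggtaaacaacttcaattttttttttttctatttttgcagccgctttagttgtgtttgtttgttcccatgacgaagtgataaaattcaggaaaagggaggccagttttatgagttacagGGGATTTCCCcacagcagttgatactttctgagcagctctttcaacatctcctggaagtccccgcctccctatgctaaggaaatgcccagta

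The Mefv promoter held 0 matches to the 4 motifs. Nlrc4 had a C/EBP type match 36 bases before the start, and the upstream start of Nlrp3 had an NF-kB type match 186 bases before it. The downstream start of Nlrp3 had 3 matches to GAGGAA, and Pycard had 1 match to GAGGAA and a C/EBP type match. The NF-kB type match of Casp4, 92 bases before the start, fits the motif on both strands over the same bases. The 9 genes had 12 promoters, since 3 had 2 starts, so the counts below are per gene and the shares per promoter. GAGGAA was found for 4 of the 9 genes, Aim2, Casp1, Nlrp3 and Pycard, and in 23.3% of 32851 mouse promoters of the same length. The NF-kB type motif was found for Casp4 and Nlrp3 and in 17.6% of promoters, the C/EBP type motif for Nlrc4 and Pycard and in 9.56%, and the interferon response type motif for 0 of 9 and in 2.98%. A match is a string of letters and no evidence of binding.

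Mefv was the gene of the 10 that differed between gates past the threshold. It encodes pyrin, an inflammasome sensor whose human gene is mutated in familial Mediterranean fever. Mefv read 7.47, 7.63 and 8.27 on the Ly6C low arrays, 8.86, 9.07 and 9.47 on the medium arrays and 9.32, 9.59 and 9.87 on the high arrays. All low arrays lay below all medium and all high arrays, whereas medium and high overlapped. The gap between the brightest low array and the dimmest high array was 1.045 on the log2 scale. Low minus high was -1.80 on the log2 scale, a 3.49-fold lower intensity (SE 0.24, limma adjusted p = 0.00382). Low minus medium was -1.34, a 2.53-fold lower intensity (SE 0.24, limma adjusted p = 0.0299). Medium and high differed by -0.46 (95% interval -1.01 to 0.08, limma adjusted p = 0.712).

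The difference between low and high remained past the threshold when each of the 9 arrays was left out in turn (limma adjusted p = 0.00299 to 0.0216). The difference between low and medium did not. Its call was lost without low replicate 1, low replicate 2, any of the 3 medium replicates or high replicate 2, with limma adjusted p up to 0.111 without low replicate 1. A moderated F test over the 3 gates gave an adjusted p = 0.00928 for Mefv and 0.137 or more for each of the other genes. Of all genes, 4% passed that F test.

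**Figure D1:**
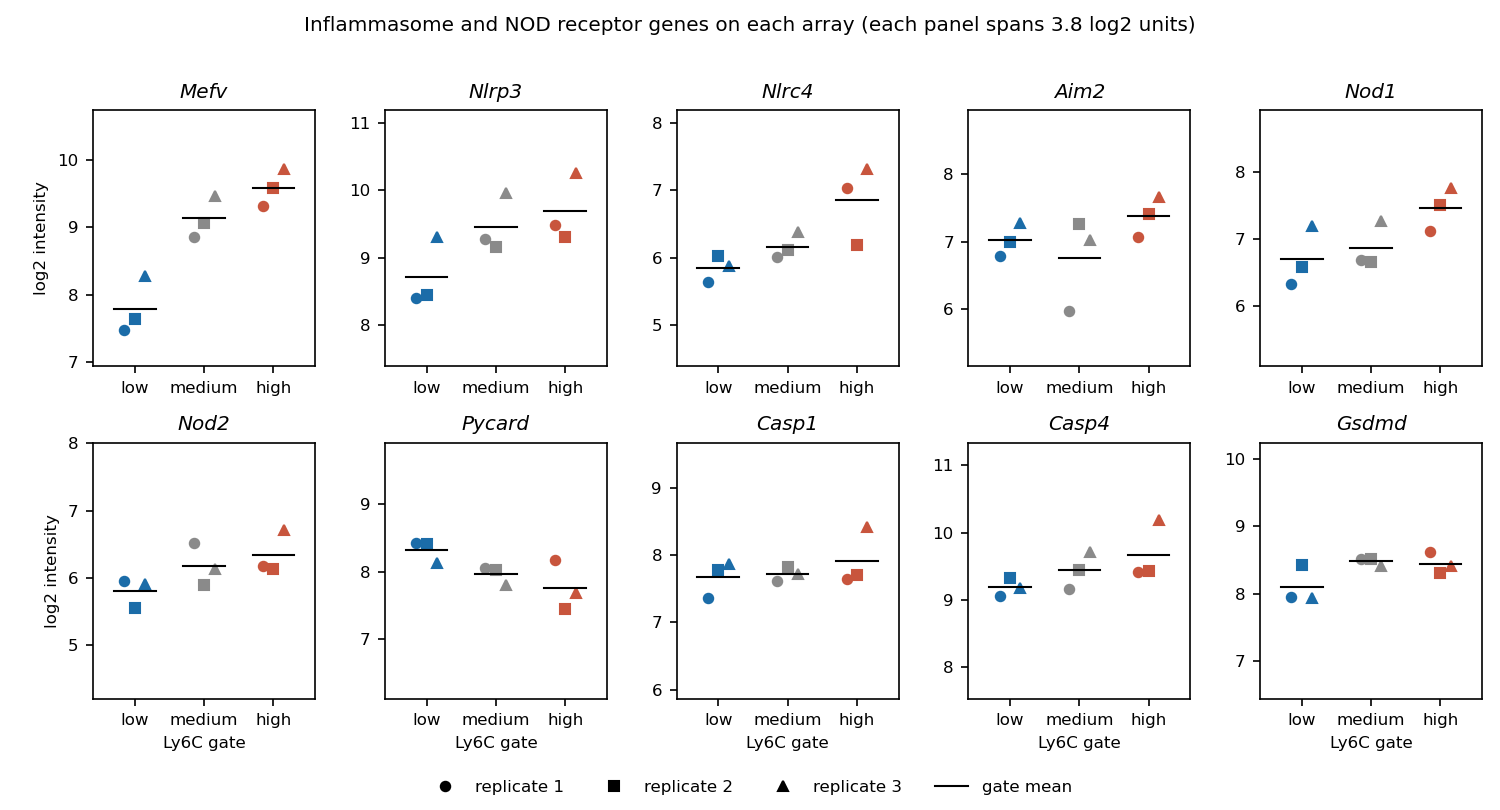
Log2 intensity (vertical axis) of the 10 genes on the 3 arrays of each Ly6C gate (horizontal axis), with a symbol for each replicate number and a bar at the gate mean; every panel spans the same number of log2 units. Mefv is the panel in which low, at 7.47 to 8.27, stands clear of medium and high, while Casp1 and Gsdmd overlap across gates.

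Nlrp3 encodes the sensor that forms an inflammasome after cell stress such as potassium loss. It read 8.40, 8.44 and 9.30 in low, 9.27, 9.16 and 9.96 in medium and 9.49, 9.30 and 10.26 in high. Low and high were separated by only 0.008, between low replicate 3 and high replicate 2. The log2 difference of low minus high was -0.98 (SE 0.33, 95% interval -1.73 to -0.23), which missed the threshold (limma adjusted p = 0.145). Replicate 3 of Nlrp3 stood above its gate mean by 0.59 in low, 0.50 in medium and 0.58 in high. With the replicate number as a block the difference passed (SE 0.1, limma adjusted p = 0.00244). The labels do not say that replicate numbers pair samples. Nlrc4 encodes the sensor that works with NAIP proteins bound to flagellin or to parts of bacterial secretion systems. Its values were 5.64, 6.03 and 5.88 in low, 6.01, 6.11 and 6.38 in medium and 7.03, 6.19 and 7.32 in high. High replicate 2 stood with the medium arrays, and the other high arrays stood above them. Nlrc4 differed between low and high by -1.0 (SE 0.26, limma adjusted p = 0.0628). That comparison passed without high replicate 2 (-1.32, adjusted p = 0.00815).

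Aim2, which encodes a sensor of DNA in the cytosol, showed no separation of gates. It read 6.78, 6.99 and 7.28 in low, 5.97, 7.26 and 7.02 in medium and 7.07, 7.41 and 7.66 in high. Medium replicate 1 was the lowest of the 9 arrays and set the low medium mean of 6.75. The difference of low minus high was -0.36 (95% interval -1.07 to 0.34, limma adjusted p = 0.66).

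Nod1 encodes a receptor for peptidoglycan fragments that carry diaminopimelic acid. It read 6.33, 6.59 and 7.19 in low, 6.69, 6.66 and 7.26 in medium and 7.11, 7.51 and 7.76 in high. Low replicate 3 reached into the range of high, and the log2 difference of low minus high was -0.76 (SE 0.26, limma adjusted p = 0.149). Medium lay nearer to low, with medium minus high at -0.59 and low minus medium at -0.17. Nod2 encodes the receptor for muramyl dipeptide, and the human gene is a known susceptibility gene for Crohn's disease. It read 5.96, 5.56 and 5.91 in low, 6.52, 5.89 and 6.13 in medium and 6.18, 6.13 and 6.71 in high. Low lay below high on every array by at least 0.165, with a difference of -0.53 (SE 0.21, limma adjusted p = 0.218).

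Nod2 and Gsdmd each had 2 probe sets, and for Nod2 the choice decided the call. The second Nod2 probe set, slightly dimmer over the 9 arrays, read 4.96, 5.4 and 5.46 in low, 5.24, 5.41 and 5.93 in medium and 6.62, 6.53 and 6.40 in high. All high arrays lay above all low and all medium arrays. Low minus high was -1.24 (SE 0.19, limma adjusted p = 0.00821 in a fit over all 23521 probe sets with a single gene) and medium minus high -0.99 (adjusted p = 0.13). With the mean of both probe sets, Nod2 differed between low and high by -0.89 (limma adjusted p = 0.00478). For Gsdmd neither probe set passed (adjusted p = 0.289 and 0.137). The medium mean of Gsdmd stood 0.04 above high with the probe set used and 0.44 below it with the second.

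**Figure D2:**
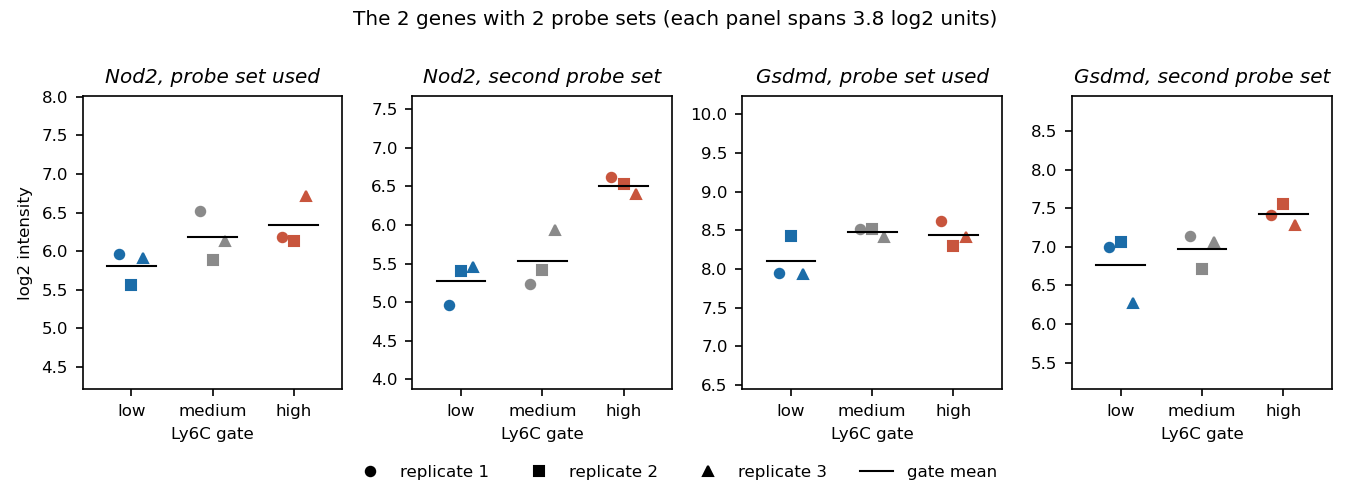
Log2 intensity (vertical axis) by Ly6C gate (horizontal axis) for both probe sets of Nod2 and of Gsdmd, with a symbol for each replicate number and a bar at the gate mean. The second Nod2 probe set separates high, at 6.40 to 6.62, from low and medium, and the probe set used for Nod2 does not separate medium from high.

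Pycard, Casp1, Casp4 and Gsdmd make up the shared machinery downstream of the sensors, and 0 of these 4 passed the threshold in any comparison (at an unadjusted p under 0.05, Pycard between low and high and Gsdmd between low and medium). Of all genes, 5.67% were called between low and high, 0.239% between medium and high and 1.93% between low and medium, so 0 of 4 is near the background. Pycard, the adaptor gene, read 8.42, 8.41 and 8.12 in low, 8.06, 8.03 and 7.80 in medium and 8.17, 7.44 and 7.68 in high. Its low arrays all lay above its medium arrays, but high replicate 1 lay inside the range of low. Pycard differed between low and high by 0.55 (SE 0.18, 95% interval 0.14 to 0.97, limma adjusted p = 0.136), the only positive difference among the 10 genes in that comparison. It passed without high replicate 1 (0.75, adjusted p = 0.0315).

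Casp1, the protease gene of the canonical inflammasomes, read 7.36, 7.77 and 7.87 in low, 7.62, 7.82 and 7.72 in medium and 7.64, 7.70 and 8.41 in high. The gates overlapped, and high replicate 3 was set apart from the other 8 arrays. Low minus high was -0.25 (95% interval -0.73 to 0.24, limma adjusted p = 0.662), and without high replicate 3 it came to 0. Casp4 is the mouse gene of caspase-11, which binds lipopolysaccharide in the cytosol and cuts gasdermin D directly. It read 9.06, 9.32 and 9.18 in low, 9.16, 9.45 and 9.71 in medium and 9.42, 9.43 and 10.18 in high. Low lay below high on every array by at least 0.1, with a difference of -0.49 (95% interval -0.98 to 0.01, limma adjusted p = 0.287).

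Gsdmd, the gene of the pore protein, read 7.95, 8.43 and 7.93 in low, 8.52, 8.52 and 8.41 in medium and 8.62, 8.30 and 8.41 in high. Low replicate 2 stood with the medium and high arrays, and the other low arrays below them. For Gsdmd the low minus high difference was -0.34 (95% interval -0.68 to 0, limma adjusted p = 0.286), and low minus medium was -0.38 (95% interval -0.72 to -0.04, limma adjusted p = 0.292).

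Counted together, 1 of the 10 genes was lower in low than in high and 0 were higher, where 2.32% of all genes were called lower and 3.35% higher (5.67% in all). At an unadjusted p under 0.05, 5 of the 10 were lower (7.46% of all genes), namely Mefv, Nlrp3, Nlrc4, Nod1 and Nod2. Gsdmd (0.0518) and Casp4 (0.0524) lay just outside, the sensor Aim2 had a p of 0.274, and with Pycard on the higher side 6 of 10 had such a p (17.9%). The low arrays lay wholly below the high arrays for 5 of the 10, Mefv, Nlrp3, Nlrc4, Nod2 and Casp4, against 8.76% of all genes, and wholly above them for 0 of 10 (11.4%). The median log2 difference of the 10 was -0.51 and that of all genes 0.0116. The signs were 9 below 0 and 1 above, also with quantile normalization repeated and with the arrays centred, where 47.3% of all genes lay below 0 as deposited.

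Between low and medium 1 of 10 was called, Mefv on the lower side, where limma called 1.93% of all genes, 0.541% lower and 1.38% higher (120 and 307 genes, or 162 and 242 with quantile normalization repeated). At an unadjusted p under 0.05 there were 3 of 10, Mefv, Nlrp3 and Gsdmd, all lower (14.1% of all genes, 5.53% lower). The low arrays lay wholly below the medium arrays for Mefv (7.58% of all genes) and wholly above them for Pycard (9.25%). Between medium and high limma called 0 of 10, where it called 0.239% of all genes, 0.198% lower and 0.0406% higher. Nlrc4 alone had an unadjusted p under 0.05 there, on the lower side (7.53% of all genes, 3.81% lower). Medium and high overlapped for all 10, whereas 4.93% of all genes lay wholly below and 5.77% wholly above.

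Medium lay between low and high in gate mean for 8 of the 10 genes. The exceptions were Aim2, whose medium mean was below both, and Gsdmd, whose medium mean was above both, by 0.04 over high, a sign that turned with the arrays centred. For Mefv and Nlrp3 the medium mean stood nearer to high, with medium minus high at -0.46 and -0.22. For Nlrc4 and Nod1 it stood nearer to low, with low minus medium at -0.31 and -0.17. Low minus medium and medium minus high share the medium arrays, so these positions are given as values without a test.

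**Figure D3:**
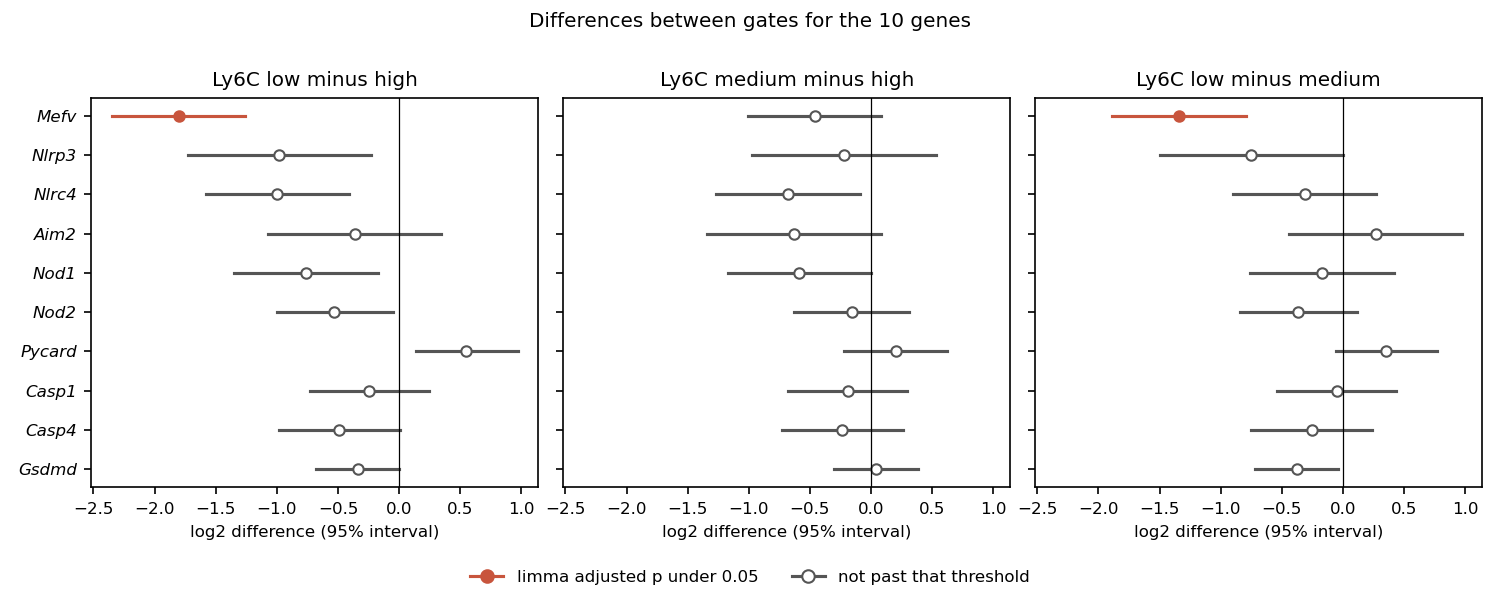
Log2 difference between gate means (horizontal axis) with its 95% interval from limma for the 10 genes (rows) in the 3 comparisons (panels); filled points passed an adjusted p of 0.05. Mefv is past the threshold at -1.80 for low minus high and -1.34 for low minus medium, and no gene is for medium minus high.

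Within a gate, several of these genes were brightest on replicate 3. Mefv, Nlrp3 and Nod1 were highest on replicate 3 in all 3 gates, as were 4.64% of all genes. Counted by gate, 5 of the 10 were highest on replicate 3 in low (36.5% of all genes), 5 in medium (25.1%) and 8 in high (28.2%). Il1b, whose product caspase-1 matures, did the same at 11.94 in low, 12.20 in medium and 12.42 in high, against 11.61 to 12.07 on the other arrays. Fibroblast markers averaged 7.34 on high replicate 3 and 8.61 and 8.01 on high replicates 1 and 2. The mean of 10 neutrophil markers was also highest on replicate 3 in each gate, at 6.12 in low, 5.99 in medium and 5.45 in high, against 4.94 to 5.4 elsewhere. In high the margin was small, with 5.4 on replicate 2. S100a8, S100a9, Mmp8, Mmp9 and Cxcr2 were highest on replicate 3 in every gate, and Ly6g, Csf3r, Camp, Ltf and Ngp were not. The part of these markers in the pattern was not tested. Without low replicate 3 alone, Mefv differed between low and high by -2.04 (limma adjusted p = 0.00299). Without replicate 3 of every gate, Mefv differed between low and high by -1.9 (limma adjusted p = 0.00773) and Nlrp3 by -0.98 (adjusted p = 0.0252).

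The other genes of these pathways were read from 5 lists with 87 genes, of which 76 were measured. In low against high 8 were lower and 3 higher, or 14.5% of the 76, where limma called 5.67% of all genes. In low against medium 3 were lower and 1 higher, or 5.26% (1.93% of all genes), and in medium against high limma called 0 of 76 (0.239% of all genes). The lists were chosen with results of these data known, so their counts are a description.

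Among 17 other sensors and NLR family genes, 4 were lower in low than in high and 0 higher, with a median log2 difference of -0.28. The share called was 23.5%, against 5.67% of all genes. Zbp1, a sensor of Z-form nucleic acid that can trigger Nlrp3, read 7.59, 8.14 and 8.37 in low, 9.31, 9.23 and 9.41 in medium and 9.69, 9.59 and 9.43 in high. It was lower in low than in high by -1.54 (limma adjusted p = 0.00223) and than in medium by -1.29 (adjusted p = 0.013). The second call was lost without medium replicate 1 or 3 (up to 0.0613). Ifi204 (-1.32, limma adjusted p = 0.022) and Ifi205 (-1.72, adjusted p = 0.0479), of the same gene family as Aim2, were lower too, as was the lipopolysaccharide co-receptor gene Cd14 (-0.76, adjusted p = 0.0342). These 3 calls depended on the arrays fitted. Leaving out low replicate 1 or 2 or high replicate 2 or 3 ended that of Ifi204 (up to 0.0837). Leaving out any array but low replicate 3 ended those of Ifi205 and Cd14 (up to 0.163 and 0.109). Ifi204 and Ifi205 belong to a cluster of near-identical genes, and their probes may share signal.

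The products of the NAIP genes bring ligands to Nlrc4. Naip2, Naip5 and Naip6 were not past the threshold, and Naip1 was not analysed here. Naip2 averaged 6.66 ± 0.08 in low, 6.76 ± 0.27 in medium and 7.07 ± 0.50 in high (SD, n = 3 each; limma adjusted p = 0.436 for low versus high). Naip5 differed by -0.37 (adjusted p = 0.72) and Naip6 by 0.02 (adjusted p = 0.99), and these paralogues also resemble each other closely. Nlrp1b, the sensor of anthrax lethal factor, averaged 4.78 in low, 4.81 in medium and 5.05 in high (limma adjusted p = 0.729). Tlr4, the receptor that primes Nlrp3 in response to lipopolysaccharide, differed by -0.28 (adjusted p = 0.429).

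Of 11 genes for the execution of pyroptosis and linked cell death, 1 was higher in low than in high and 1 lower (median 0.03). The share called was 18.2%, against 5.67% of all genes. Nek7, the kinase that binds and activates Nlrp3, read 8.39, 8.29 and 8.29 in low, 8.11, 8.20 and 8.06 in medium and 6.96, 7.72 and 7.43 in high. Low and medium both lay wholly above high. Nek7 had a low minus high difference of 0.95, a 1.94-fold higher intensity (SE 0.17, limma adjusted p = 0.0144), and leaving out low replicate 1 ended the call (0.0589), as did leaving out replicate 3 of every gate (0.118). Nek7 and Nlrp3 thus had differences of opposite sign, 0.95 and -0.98, and in the main fit only that of Nek7 passed. Without replicate 3 of every gate only that of Nlrp3 passed. With the replicate number as a block both passed (limma adjusted p = 0.0175 for Nek7 and 0.00244 for Nlrp3). Panx1, a channel that lets ATP out of cells, was lower by -0.67 (limma adjusted p = 0.0244). The Panx1 call was lost without any of the 3 low replicates, high replicate 2 or high replicate 3 (up to 0.0836). P2rx7, the ATP-gated channel whose opening drains potassium, read 9.0, 9.15 and 7.57 in low, 7.87, 7.79 and 7.80 in medium and 7.13, 7.81 and 7.30 in high. Low replicates 1 and 2 stood above all other arrays and low replicate 3 among those of high, and the difference of 1.17 missed the threshold (limma adjusted p = 0.119). Gsdme, a second gasdermin gene, averaged 3.67, 3.51 and 3.28 in low, medium and high (adjusted p = 0.248), below the array median.

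Substrates, receptors and antagonists of the interleukin 1 family had 1 of 15 lower in low than in high and 0 higher (median -0.36). This 6.67% is near the 5.67% called among all genes. Irak2, a kinase downstream of interleukin 1 and Toll-like receptors, differed by -0.87 (limma adjusted p = 0.0221). Leaving out low replicate 1 or 2 or any high replicate ended its call (up to 0.0837). With an array left out the list had 0 to 3 genes called, 0 without low replicate 1 or 2 or high replicate 1 or 2 and 3 without low replicate 3 (Il1r1, Il1rn and Irak2). It also had 3 without dim genes (Il1r1, Il18bp and Irak2). Il1b differed by -0.43 (95% interval -0.81 to -0.04, limma adjusted p = 0.219) and its low arrays lay wholly below its high arrays. Il18, the other cytokine that caspase-1 matures, averaged 7.60 ± 0.13 in low, 7.41 ± 0.50 in medium and 7.96 ± 0.37 in high (SD, n = 3 each; limma adjusted p = 0.57). Il1a varied widely within gates, at 8.24, 8.65 and 10.57 in low, 10.08, 10.18 and 11.50 in medium and 9.85, 9.61 and 11.30 in high (adjusted p = 0.477), and was highest on replicate 3 in each gate. Il1rn, which encodes the receptor antagonist, differed by -0.65 (adjusted p = 0.163).

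NOD signalling and peptide transport had 1 of 16 genes lower in low than in high and 0 higher (median -0.16). This 6.25% is near the 5.67% called among all genes. Slc15a3, a lysosomal transporter that passes muramyl dipeptide to the cytosol, read 9.65, 9.89 and 10.02 in low, 10.78, 10.72 and 10.75 in medium and 10.62, 10.83 and 10.80 in high. All low arrays lay below all others, and medium and high had the same mean of 10.75. Low minus high was -0.90, a 1.86-fold lower intensity (SE 0.12, limma adjusted p = 0.00314), and low minus medium was also -0.90 (adjusted p = 0.00888). Both calls remained when each array was left out in turn (up to 0.0153 and 0.041), but without replicate 3 of every gate that against medium was lost (0.0661). The list had 3 genes called in low versus high without high replicate 1 (Birc2 and Birc3 added). Card9, an adaptor downstream of Nod2 and of lectin receptors, averaged 6.19, 6.00 and 6.21 in low, medium and high (limma adjusted p = 0.951 for low versus high). Ripk2 was not analysed here.

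Regulators and inhibitors of inflammasomes had 1 of 17 genes lower in low than in high and 2 higher (median -0.38). The share called was 17.6%, against 5.67% of all genes. Serpinb1a, a protease inhibitor that restrains caspase activation, read 4.44, 4.92 and 4.90 in low, 2.91, 3.27 and 3.01 in medium and 3.29, 3.39 and 3.24 in high. Medium and high lay below the array median for this gene, where a probe set may read background, so no fold is given. The measured log2 difference was 1.45 for low minus high (SE 0.15, limma adjusted p = 0.00143) and 1.69 for low minus medium (adjusted p = 0.00245). Both calls remained with each array left out in turn, but without replicate 3 of every gate that against medium was lost (0.051), and the gene did not pass a filter on dim genes. Txnip, a thioredoxin-binding protein reported to bind Nlrp3 under oxidative stress, was higher by 0.90 (limma adjusted p = 0.031). Leaving out low replicate 1 or 2, medium replicate 1 or high replicate 1 or 3 ended the Txnip call (up to 0.114). Irf7, an interferon-induced transcription factor, was lower by -1.54 (limma adjusted p = 0.00476) and by -1.19 against medium (adjusted p = 0.0316). The call against medium ended without low replicate 1 or 2, any medium replicate or high replicate 2 (up to 0.11). Gbp5, an interferon-induced GTPase that promotes Nlrp3 assembly, averaged 4.22 ± 0.56 in low, 5.27 ± 0.89 in medium and 5.89 ± 0.95 in high (SD, n = 3 each; limma adjusted p = 0.13 for low versus high). Irf8, a transcription factor that drives the NAIP genes, differed by -0.40 (adjusted p = 0.407).

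**Figure D4:**
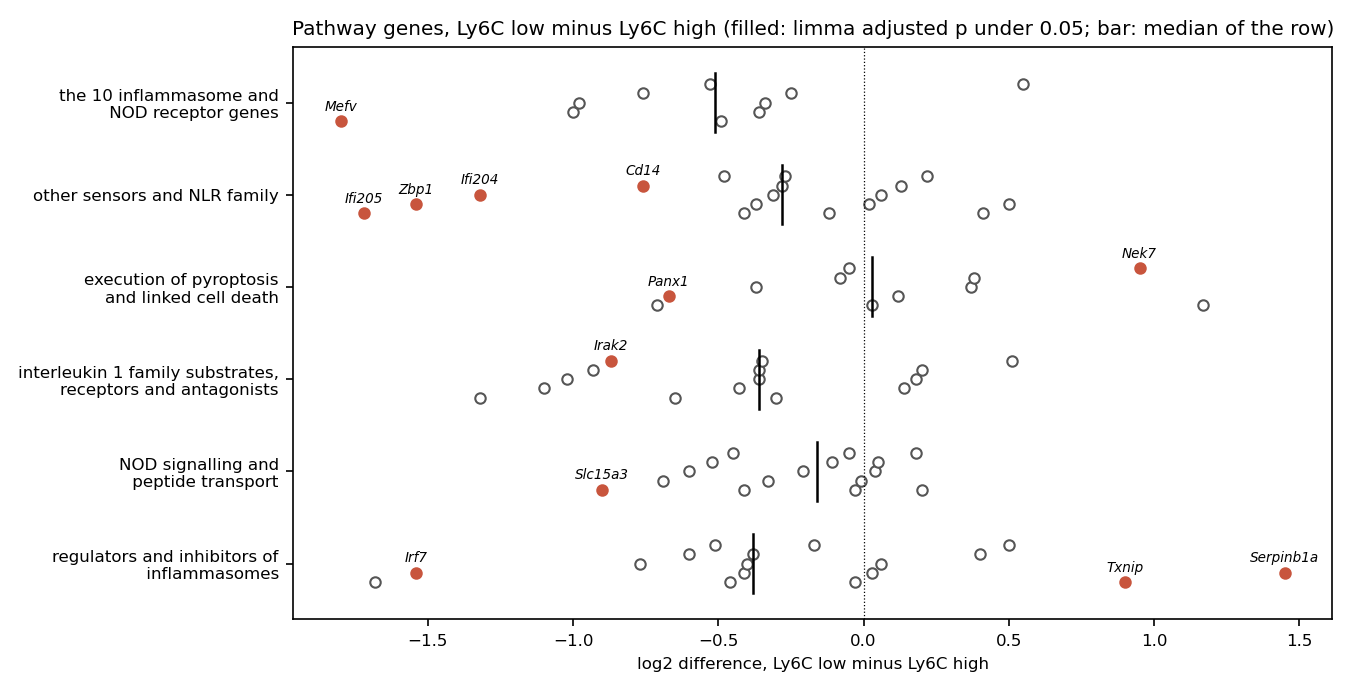
Log2 difference of Ly6C low minus Ly6C high (horizontal axis) for the 10 genes and for the measured genes of the 5 pathway lists (rows); each point is a gene, filled and named where limma gave an adjusted p under 0.05, and the bar is the median of the row. Mefv lies farthest left among the 10 at -1.80, and Nek7, Txnip and Serpinb1a are filled to the right.

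The 3 genes whose values ran closest to those of Mefv over the 9 arrays, among 5906 genes with a mean log2 value of at least 6, were Smox, Vcan and Slfn1, with Pearson correlations of 0.990, 0.985 and 0.983. The correlations include the differences between gates and are a description. Smox, which encodes spermine oxidase, read 7.69, 7.76 and 8.37 in low, 9.21, 9.24 and 9.45 in medium and 9.69, 9.70 and 10.06 in high. Low minus high was -1.88 for Smox, -3.00 for Vcan, the versican gene that marks classical monocytes, and -2.56 for Slfn1, a member of the Schlafen family. The genes were chosen for following Mefv on these arrays, so no test is given for them.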

How the data were processed

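RNA of sorted CD11b+ Ly6G- cells was amplified and hybridized to Affymetrix arrays, per the labels' protocols. The deposited values are log2 intensities that the authors made with RMA, per the submitters' processing notes, and they were used as deposited. Of 41345 probe sets, 23521 had a single gene symbol and were kept, while 1814 with more than 1 symbol and 16010 without an entry were left out. A gene's probe set with the highest mean over 9 arrays was kept, which left 22180 genes, with no filter on dim genes.

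Moderated tests from limma 3.58.1 in R 4.3.3 compared the gates (two-sided, 6 residual degrees of freedom, Benjamini-Hochberg over all genes, threshold 0.05). The procedure was tested on simulated data. The 10 genes, the pathway lists and the markers were chosen with earlier results of these data known. Named genes were the 10, per list up to 5 genes past the threshold with the largest difference, a fixed set given whatever its test, and the 3 genes most like each of the 10 that passed the F test. Promoter sequences are RefSeq's, on GRCm38.p6, matched by symbol; for the arrays, the build and the RMA version were not given in the sources used here. Alternatives were another normalization (quantile or centring), the mean of a gene's probe sets, a dim filter (log2 6 or more in 3 or more arrays), another prior, a replicate block, only the 2 gates compared, and each array left out. Leaving out replicate 3 of every gate and the fit of single probe sets were added after seeing the data. For arrays the number of samples limits the precision.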

Additional observations from a re-analysis of the deposited data

How the results depend on the processing

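Of 510 values of the 10 genes under the alternatives, 494 kept their side of the threshold, 7 lost a call, 9 gained one and 0 calls reversed. Among the 494, 14 differences that were not called changed sign. Mefv in low versus high kept its call under all 17 alternatives (-2.04 to -1.64). In low versus medium Mefv was lost when only the 2 gates compared were fitted (-1.34, limma adjusted p = 0.0695, 0 of 10 called) and ranged from -1.58 to -1.17 with an array left out. Genes of the 10 called in low versus high, 1 in all settings not named here, became 2 with quantile normalization repeated (Nlrc4 added, adjusted p = 0.0358), 2 with the mean of all probe sets (Nod2 added), 2 without dim genes (Nlrc4 added, 0.0245), and 2 without replicate 3 of every gate (Nlrp3 added). With an array left out they numbered 1 to 2 in low versus high and 0 to 1 in low versus medium. The dim filter kept all 10, but Nod2 passed it through medium and high arrays alone.

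The same replicate numbers occur in each gate, but the labels do not say that they pair samples. Deviations from gate means correlated at -0.017 to 0.309 over the 9 same-numbered pairs, 4 of them over 0.1, and at -0.183 to 0.151 over the 18 other pairs. Only 3 of 9 arrays, the replicates 3, correlated best with their own number in both other gates. With the replicate number as a block, 3 of the 10 were called in low versus high (Mefv, Nlrp3 at an adjusted p of 0.00244 and Nod1 at 0.0136) and 2 in low versus medium (Mefv, and Nlrp3 at 0.0131). Of all genes, 7.05% and 2.84% were called with that block.

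Over all genes, limma called 1258 for low versus high, 53 for medium versus high and 427 for low versus medium. In that order they numbered 644, 1 and 211 with only the 2 gates compared and 683, 6 and 140 without replicate 3 of every gate. With an array left out they numbered 596 to 1243, 2 to 72 and 119 to 522. Those settings have fewer samples. Over all alternatives the counts in the pathway lists for low versus high ranged from 1 to 4 for other sensors, 0 to 4 for execution, 0 to 6 for the interleukin 1 family (6 with the replicate block), 1 to 3 for NOD signalling and 2 to 4 for regulators.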
